A study of Homo sapiens with 12 samples.

Results

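Keratins 8, 18 and 19 and the KRT8 pseudogenes KRT8P36 and KRT8P39 were followed through 12 poly(A) RNA-seq libraries made from HEK293T, a human line derived from embryonic kidney. These 5 genes were chosen by name, with their levels and differences between effectors in these same libraries already known, out of 62710 genes in the deposited count table. Of them, 4 passed the filter on low counts that left 20593 genes for testing, and KRT19 did not. Because the genes were selected on the values given here, their levels and differences are descriptions with no test.

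Each library came from cells that carried an effector vector and a guide RNA vector. The effector was dCasRx-RBM25, which joins the splicing factor RBM25 to dCasRx, RBFOX1N-dCasRx-C, which carries parts of the splicing factor RBFOX1, or dCasRx alone. dCasRx, present in all 12 libraries, is a form of the RNA-guided nuclease CasRx that binds RNA without cutting it. The guides were nontargeting (NT), against MAPT or against CD46, which gave the groups RBM25_NT, RBM25_MAPT, RBM25_CD46, RBFOX1N_NT, RBFOX1N_MAPT and dCasRx_NT with 2 replicates each. The vectors were introduced by transient transfection (200 ng of each) and RNA was taken 48 hours later, so a library averages over cells with and without the vectors, and no group was left untransfected. In such bulk RNA, fewer cells that express a gene and less of its RNA per cell cannot be told apart.

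Libraries held 32487927 to 53985468 counts. Counts at RBM25 reached 42323 to 59147 CPM (counts scaled to 1000000 per library) in the 6 libraries with dCasRx-RBM25, against 197 to 218 CPM with RBFOX1N and 204 and 352 CPM with dCasRx, while RBFOX1 had at most 6 counts anywhere and checks no label. The cells carried markers of the line: PAX2 had 5.3 to 11.5 CPM, LHX1 6.14 to 10.5 CPM and the neurofilament gene NEFM 125 to 187 CPM, but PAX8 had 0 to 2 counts. The 8 markers of the line summed to 386 to 457 CPM with RBM25 and 311 to 346 CPM with RBFOX1N, against 351 and 371 CPM with dCasRx. Of 16 markers of blood, vessel, glial and other cell types, 8 had at most 5 counts in any library, and the list summed to 6.12 to 8.40 CPM in libraries with either fused effector and 7.26 to 7.43 CPM in dCasRx_NT.

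Keratins are the intermediate filament proteins of epithelial cells, and a filament forms from pairs of a type I and a type II keratin. Keratin 8 (type II) with keratin 18 (type I) is the pair of simple epithelia such as kidney tubule, liver and gut, and keratin 19 is a further type I partner found in ducts. The KRT8 and KRT18 mRNAs have left many processed pseudogenes in the human genome, which are intron-free copies of the mRNA inserted elsewhere. A read from such a copy can be told from a read of the parent only where the sequences differ.

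KRT8 lies on the minus strand of chromosome 12 (chr12:52897187-52949954, GRCh38, GENCODE release 29) and KRT18 on its plus strand (chr12:52948871-52952901), where their annotated starts overlap. KRT19 lies on chromosome 17 (chr17:41523617-41528308, minus strand). KRT8P36 (chr3:138101478-138102917, minus strand) sits in an intron of DZIP1L, a gene of the base of the primary cilium, in the same direction as that gene. KRT8P39 (chr12:68705634-68707066, plus strand) sits in an intron of NUP107, a scaffold protein of the nuclear pore, also in the direction of its host. No other annotated gene lay within 10 kb of either pseudogene.

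Over 1435 aligned bases, the KRT8P36 transcript was 93.5% identical to the KRT8 transcript and differed by 93 substitutions. KRT8P39 was 90.7% identical over 1432 bases, with 133 substitutions, and the 2 pseudogenes were 89.0% identical to each other. The longest run without a difference from KRT8 was 65 bases in KRT8P36 and 62 bases in KRT8P39. Every window of 150 bases, the length of a read, held at least 4 positions that differed from or were missing against KRT8 in KRT8P36 and at least 7 in KRT8P39, with medians of 10 and 13. The reads are paired, so most fragments span more of these positions than 1 read does. How the counting treated reads that match several places is not stated in the sources used here. The counts of near-identical copies therefore remain uncertain.

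KRT8 was higher in every library with RBFOX1N-dCasRx-C and at about the same level in the others. It had 67.3 and 66.6 CPM in RBFOX1N_NT and 65.3 and 67.0 CPM in RBFOX1N_MAPT. It had 29.4 and 27.7 CPM in RBM25_NT, 28.8 and 26.1 CPM in RBM25_MAPT and 28.3 and 25.3 CPM in RBM25_CD46, against 30.4 and 28.6 CPM in dCasRx_NT. The 4 RBFOX1N libraries stood clear of the other 8, while the RBM25 libraries overlapped those with dCasRx alone.

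The fitted log2 difference of KRT8 was 1.18 (SE 0.090) for RBFOX1N_NT over dCasRx_NT, a fold of 2.27. It was -0.05 (SE 0.091) for RBM25_NT over dCasRx_NT and -1.23 (SE 0.089) for RBM25_NT over RBFOX1N_NT. In the order of group means the 2 RBFOX1N groups came first and did not differ beyond their spread, and dCasRx_NT and the 3 RBM25 groups followed, each overlapping its neighbour.

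A second readout of KRT8 was the reads that join its exons across 7 introns, in the authors' splicing table. An intron-free copy also holds the joined exons, so this readout is not free of reads from near-identical copies. Per 1000000 gene counts, these spliced reads numbered 50.8 and 48.7 in RBFOX1N_NT, 49 and 51.6 in RBFOX1N_MAPT and 25.0 to 29.1 in the 6 libraries with dCasRx-RBM25, against 24.2 and 22.9 in dCasRx_NT. The RBFOX1N libraries again stood clear of the rest, and all RBM25 libraries lay slightly above dCasRx_NT. Set against the gene counts of KRT8 itself, the spliced reads made 0.974 to 1.08 per count with RBM25, 0.708 to 0.748 with RBFOX1N against 0.751 and 0.740 with dCasRx. The RBM25 libraries thus lay apart from the others in this ratio, while for KRT18 the same ratio over 5 introns overlapped (0.777 to 0.850 with RBM25, 0.813 to 0.848 with RBFOX1N, against 0.814 and 0.680 with dCasRx). The splicing table counts its own read mappings, whose rules differ from those of the gene counts, and the source of the ratio was not tested.

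KRT18, the filament partner of KRT8, showed no such difference. It had 64.6 and 61.1 CPM in RBM25_NT, 60.2 and 55.9 CPM in RBM25_MAPT, 57.9 and 56.0 CPM in RBM25_CD46, 60.7 and 54.7 CPM in RBFOX1N_NT and 56.0 and 57.2 CPM in RBFOX1N_MAPT, against 54.3 and 53.6 CPM in dCasRx_NT. All groups lay within a narrow band, with both dCasRx_NT libraries at its low end. The fitted log2 differences were 0.22 (SE 0.083) for RBM25_NT over dCasRx_NT, 0.10 (SE 0.084) for RBFOX1N_NT over dCasRx_NT and 0.12 (SE 0.083) for RBM25_NT over RBFOX1N_NT. RBM25_NT ranked first with both libraries above those of RBM25_MAPT, dCasRx_NT ranked last with both below RBFOX1N_MAPT, and the 4 groups between them overlapped their neighbours.

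The balance of the pair differed between RBFOX1N and the other effectors in both gene counts and spliced reads. Per kilobase of annotated exon, KRT18 stood at 4.39 to 4.73 times the level of KRT8 in the RBM25 libraries and 1.75 to 1.93 times in the RBFOX1N libraries, against 3.82 and 4.0 times in dCasRx_NT. The annotated exons of KRT8 sum to 6881 bases because they include long alternative starts, against 3218 bases for KRT18, so the size of this ratio depends on the annotation. In spliced reads, KRT18 had 1.59 to 1.80 reads per KRT8 read with RBM25 and 0.943 to 0.988 with RBFOX1N, against 1.93 and 1.72 with dCasRx. There the RBFOX1N libraries again lay lowest, but the RBM25 libraries overlapped those with dCasRx and did not lie above them.

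KRT19, the ductal type I keratin, was barely detected at this depth. It had 1 and 0 counts in RBM25_NT, 3 and 0 in RBM25_MAPT, 3 and 0 in RBM25_CD46, 2 and 6 in RBFOX1N_NT and 2 and 4 in RBFOX1N_MAPT, against 0 and 1 in dCasRx_NT. The 4 RBFOX1N libraries had at least 2 counts each, but 2 other libraries had 3, so the groups overlapped. A count of 0 allows up to 3 counts, so no fold was taken.

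KRT8P36 was high in all 6 libraries with dCasRx-RBM25. It had 5.91 and 4.59 CPM in RBM25_NT (247 and 239 counts), 3.84 and 3.90 CPM in RBM25_MAPT and 5.72 and 5.22 CPM in RBM25_CD46. It had 1.43 and 1.32 CPM in RBFOX1N_NT (49 and 56 counts) and 1.28 and 1.27 CPM in RBFOX1N_MAPT, against 0.670 and 0.536 CPM in dCasRx_NT (23 and 20 counts). The 3 effectors did not overlap. The fitted log2 difference was 3.12 (SE 0.224, a fold of 8.68) for RBM25_NT over dCasRx_NT, 1.19 (SE 0.242) for RBFOX1N_NT over dCasRx_NT and 1.93 (SE 0.189) for RBM25_NT over RBFOX1N_NT. Within the RBM25 libraries, both of RBM25_MAPT lay below the other 4, with a log2 difference of -0.44 (SE 0.169) for RBM25_MAPT over RBM25_NT.

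KRT8P39 had the same order of effectors. It had 4.16 and 3.48 CPM in RBM25_NT (174 and 181 counts), 3.16 and 4.11 CPM in RBM25_MAPT and 4.40 and 3.72 CPM in RBM25_CD46. It had 1.52 and 1.25 CPM in RBFOX1N_NT (52 and 53 counts) and 0.972 and 1.13 CPM in RBFOX1N_MAPT, against 0.699 and 0.751 CPM in dCasRx_NT (24 and 28 counts). Again the effectors did not overlap, and here the 3 RBM25 groups did overlap one another. The fitted log2 difference was 2.39 (SE 0.239, a fold of 5.24) for RBM25_NT over dCasRx_NT, 0.92 (SE 0.256) for RBFOX1N_NT over dCasRx_NT and 1.47 (SE 0.212) for RBM25_NT over RBFOX1N_NT.

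**Figure D1:**
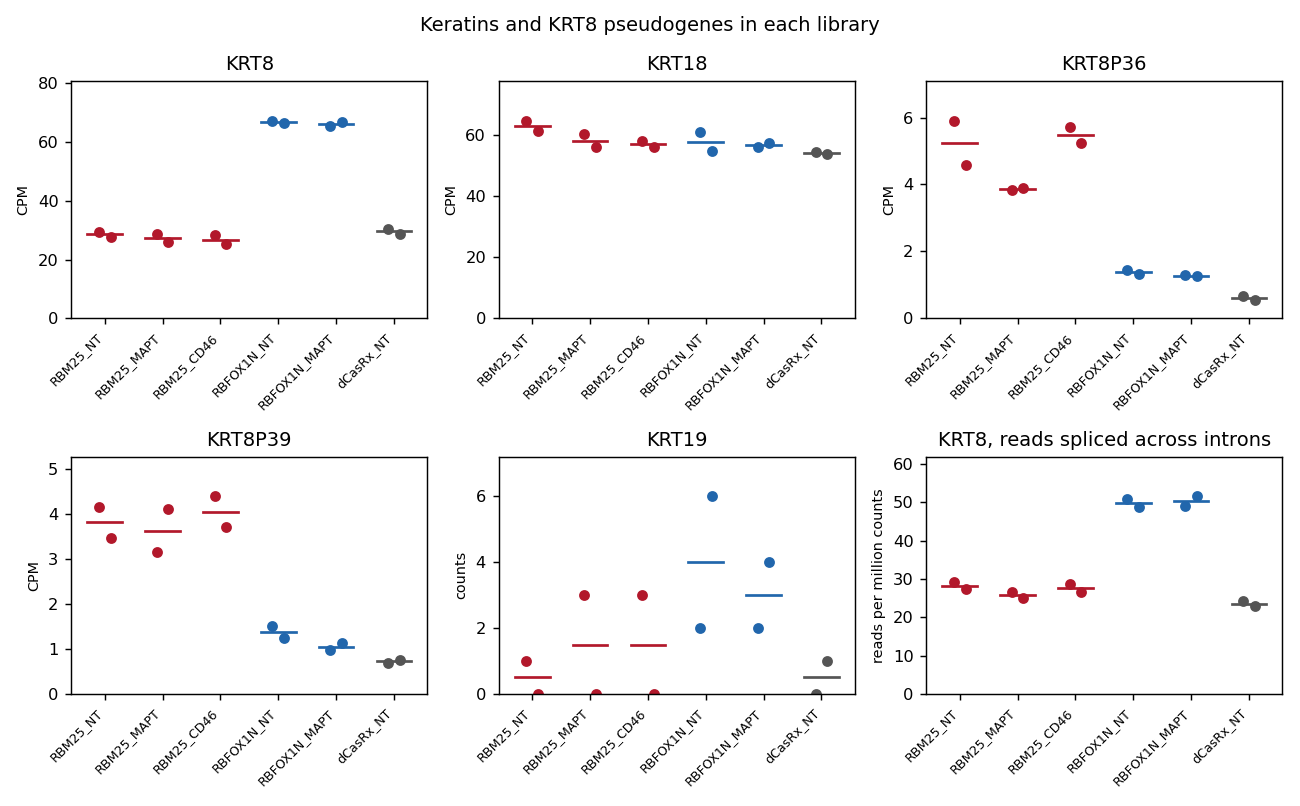
Level of each keratin and pseudogene in every library by group (CPM, counts for KRT19), and reads spliced across KRT8 introns per 1000000 counts. Points are libraries and bars are group means (n = 2). KRT8 and its spliced reads are highest in the 4 RBFOX1N libraries, and both pseudogenes in the 6 RBM25 libraries.

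Taken library by library, KRT8P36 followed its parent between RBFOX1N and dCasRx and departed from it with RBM25. For every 1000 KRT8 counts there were 201 and 166 KRT8P36 counts in RBM25_NT, 133 and 150 in RBM25_MAPT and 202 and 206 in RBM25_CD46. There were 21.3 and 19.8 in RBFOX1N_NT and 19.6 and 19 in RBFOX1N_MAPT, against 22.0 and 18.7 in dCasRx_NT. The RBM25 libraries all lay above the other 6, which overlapped although KRT8 itself differed 2.27-fold between RBFOX1N_NT and dCasRx_NT. Its log2 difference minus that of KRT8 was 3.17 for RBM25_NT over dCasRx_NT and 0.01 for RBFOX1N_NT over dCasRx_NT.

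KRT8P39 behaved in the same way with RBM25, at 141 and 126 counts per 1000 KRT8 counts (NT guide), 110 and 158 (MAPT guide) and 156 and 147 (CD46 guide). It numbered 22.6 and 18.7 in RBFOX1N_NT and 14.9 and 16.9 in RBFOX1N_MAPT, against 23.0 and 26.2 in dCasRx_NT, so the 4 RBFOX1N libraries all lay slightly below the 2 with dCasRx. Across the 6 RBM25 libraries, Pearson's r of log2 CPM with KRT8 was 0.23 for KRT8P36 and -0.05 for KRT8P39, against 0.85 for KRT18. These libraries share 3 guide groups and the correlations are given as descriptions.

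The pseudogenes did not follow the genes around them either. DZIP1L had 13.6 to 16.6 CPM with RBM25 and 12.8 to 14.3 CPM with RBFOX1N, against 11.8 and 13.5 CPM with dCasRx. Its log2 difference was 0.16 (edgeR quasi-likelihood test, adjusted p = 0.394) for RBM25_NT over dCasRx_NT and 0.18 (adjusted p = 0.331) for RBFOX1N_NT over dCasRx_NT. NUP107 had 108.8 to 128.0 CPM with RBM25 and 101.6 to 110.8 CPM with RBFOX1N, against 112.5 and 121.2 CPM with dCasRx, and its log2 differences were -0.05 (adjusted p = 0.784) and -0.14 (adjusted p = 0.347) in the edgeR test. For every 1000 counts of its host, KRT8P36 had 232 to 412 counts with RBM25 and 91.9 to 100 with RBFOX1N, against 49.8 and 45.4 with dCasRx, and KRT8P39 had 28.5 to 38.5 and 9.37 to 13.7, against 6.21 and 6.19.

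**Figure D2:**
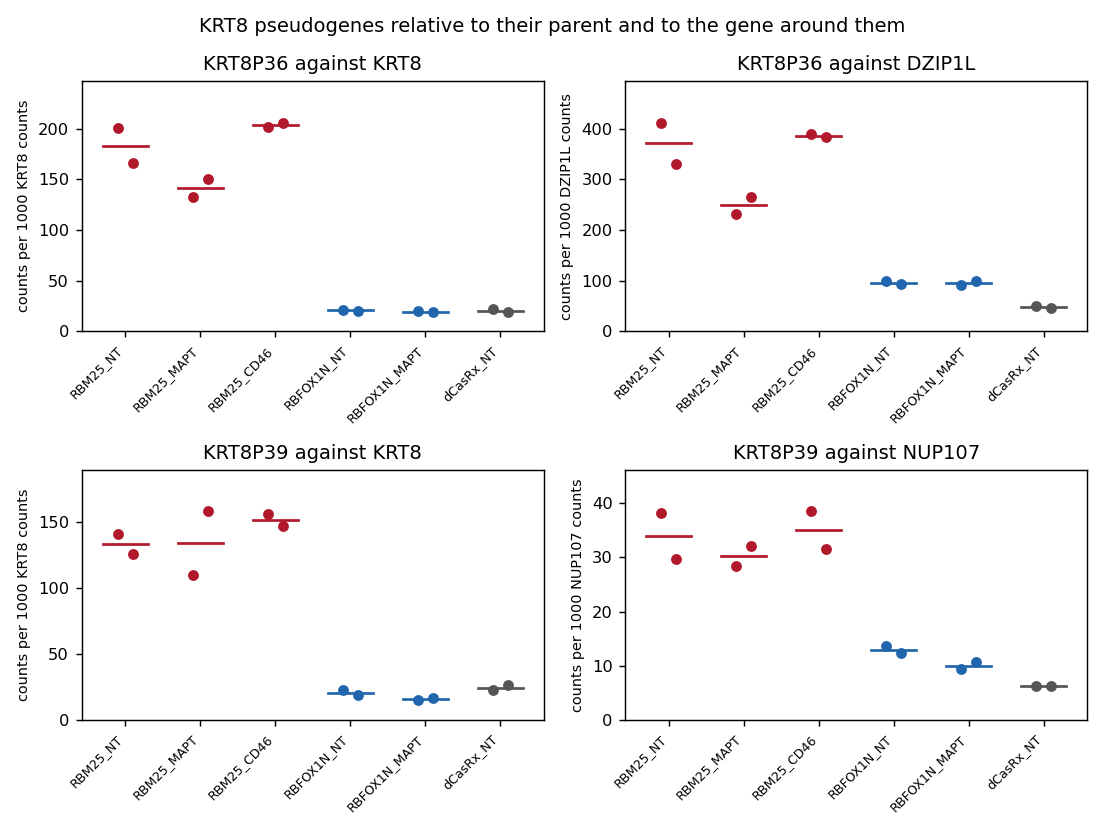
Counts of KRT8P36 and KRT8P39 per 1000 counts of KRT8 (left) and per 1000 counts of the gene that holds them (right), by library and group. Points are libraries and bars are group means (n = 2). Against KRT8, the RBM25 libraries lie at 110 to 206, above the RBFOX1N and dCasRx libraries at 14.9 to 26.2.

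The introns that hold the pseudogenes were looked at next, in the splicing table, which gives reads over each intron boundary (upstream and downstream boundary in the direction of transcription, as read from the layout of the table), reads spliced over the intron and reads in a window of 200 bases at its middle. The DZIP1L intron (chr3:138097848-138103470, 5623 bases) has KRT8P36 553 bases from its upstream and 3630 bases from its downstream boundary. Its upstream boundary had 9 and 11 reads in RBM25_NT, 11 and 6 in RBM25_MAPT and 6 and 5 in RBM25_CD46, 1 and 5 in RBFOX1N_NT and 5 and 0 in RBFOX1N_MAPT, against 0 and 3 in dCasRx_NT. Its downstream boundary had 0 reads in all 12 libraries, and spliced reads numbered 15 to 43 with RBM25 and 19 to 30 with RBFOX1N, against 29 and 14 with dCasRx.

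The NUP107 intron (chr12:68702785-68709237, 6453 bases) has KRT8P39 2849 bases from its upstream and 2171 bases from its downstream boundary. Here the downstream boundary had the reads: 3 and 7 in RBM25_NT, 7 and 5 in RBM25_MAPT and 6 and 12 in RBM25_CD46, 0 and 2 in RBFOX1N_NT and 0 and 1 in RBFOX1N_MAPT, against 0 and 1 in dCasRx_NT. The upstream boundary had at most 1 read in any library, and spliced reads numbered 102 to 142 with RBM25 and 99 to 106 with RBFOX1N, against 101 and 109 with dCasRx. The RBM25 libraries held at least 3 reads at the downstream boundary where the others held at most 2. Boundary reads are few and are given without scaling to depth. The RBM25 libraries held 39428093 to 53985468 gene counts, against 32487927 to 41225760 in the others.

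The middle window of the NUP107 intron lies inside KRT8P39. It held 30.1 to 40.3 corrected reads with RBM25 and 40.3 to 52.4 with RBFOX1N, against 20.2 and 15.8 with dCasRx. This order has RBFOX1N highest, as for KRT8, and differs from that of the KRT8P39 gene counts. The window has 14 positions that differ from or are missing against KRT8, and none of its 50-base windows occurs in the KRT8 transcript (0 found). That search took exact matches only, so it cannot tell where reads with mismatches were placed. What set the reads of this window was not tested. Retention of this intron, at 0% to 4.47% of its reads, differed by 1.39 points for RBM25_NT over dCasRx_NT (quasi-binomial model over all events, adjusted p = 0.544). The NUP107 exon just before it (chr12:68702736-68702784, 49 bases) had an inclusion 4.40 points higher in RBM25_NT than in dCasRx_NT (adjusted p = 0.0117, same model), which is under the 10 points required for a call.

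Another intron showed boundary reads of this kind. KRT8P33 sits in an intron of CEP120, a centriole protein, at 1637 bases from the downstream boundary, which had 6 to 10 reads with RBM25 (48 in all) and 0 to 2 with RBFOX1N (5 in all), against 0 and 1 with dCasRx. In the MANBA intron with KRT8P46 and the TTBK2 intron with KRT8P50, each boundary had 0 to 2 reads in every library. KRT8P50 is classed as overlapping an annotated exon of another gene and not as purely intronic. The middle window of the TTBK2 intron, which lies outside KRT8P50, held 8.1 to 13.4 corrected reads with RBM25 and 4.6 to 7.2 with RBFOX1N, against 7.0 and 2.5 with dCasRx.

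KRT8 and KRT18 have other pseudogenes that were not among the 5 genes, and these were tested. Of 49 further KRT8 pseudogenes in the table, 13 had no count in any library and 7 passed the filter. Of 67 KRT18 pseudogenes, 19 had no count and 9 passed, and none of 5 KRT19 pseudogenes did. Of the 16 tested, 4 rose in RBM25_NT over dCasRx_NT (25.0%) and none fell, where 3.88% of all 20593 genes were called higher and 3.74% lower by the edgeR quasi-likelihood test at an adjusted p under 0.05. For RBFOX1N_NT over dCasRx_NT 3 of 16 rose and none fell (all genes, 7.52% higher and 3.25% lower). For RBM25_NT over RBFOX1N_NT 1 rose and 1 fell (all genes, 7.03% and 9.63%). DESeq2 called 2, 3 and 1 of the 16 in these comparisons. Of these 16, 5 reached the level of the filter in neither dCasRx library, among them KRT18P61 and KRT18P31, and could pass only through libraries with a fused effector. Of the other 11, 2 rose in RBM25_NT and 3 rose in RBFOX1N_NT over dCasRx_NT, and 1 fell in RBM25_NT over RBFOX1N_NT.

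KRT8P33 and KRT8P50 rose with both effectors. KRT8P33 had 4.33 and 3.98 CPM in RBM25_NT and 2.93 and 3.27 CPM in RBFOX1N_NT, against 1.28 and 1.29 CPM in dCasRx_NT, which are log2 differences of 1.69 (edgeR adjusted p = 9.86e-05) and 1.27 (adjusted p = 0.00054). KRT8P50 had 4.35 and 3.19 CPM in RBM25_NT and 3.19 and 2.94 CPM in RBFOX1N_NT, against 1.08 and 1.10 CPM in dCasRx_NT, with log2 differences of 1.79 (edgeR adjusted p = 0.000418) and 1.49 (adjusted p = 0.00105). Neither passed the test between RBM25_NT and RBFOX1N_NT (adjusted p = 0.0807 and 0.323, edgeR). Per 1000 KRT8 counts both were highest in the RBM25 libraries. KRT8P33 had 119 to 160 with RBM25 and 43.5 to 54.0 with RBFOX1N, against 42.1 and 44.9 with dCasRx, the RBFOX1N and dCasRx libraries overlapping. KRT8P50 had 103 to 148 with RBM25 and 44.1 to 53.6 with RBFOX1N, against 35.4 and 38.4 with dCasRx, so all 4 RBFOX1N libraries lay above both with dCasRx. KRT8P33 was 95.8% identical to KRT8, with a run of 133 bases without a difference, and KRT8P50 was 91.7% identical, with a longest run of 61 bases.

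KRT8P12, the most abundant of them, is annotated as a transcribed pseudogene whose start overlaps that of KPNA4 on the other strand, and it had another pattern. It had 6.15 and 6.09 CPM in RBM25_NT and 9.33 and 8.54 CPM in RBFOX1N_NT, against 7.83 and 6.67 CPM in dCasRx_NT. It fell in RBM25_NT over RBFOX1N_NT by 0.54 on the log2 scale (edgeR adjusted p = 0.0114). That call was lost without RBM25_NT replicate 1 or 2 or RBFOX1N_NT replicate 1 (adjusted p up to 0.098). Its log2 differences over dCasRx_NT were -0.24 with RBM25 and 0.30 with RBFOX1N (adjusted p = 0.261 and 0.146). KRT8P46 had log2 differences of -0.41 and -0.37 over dCasRx_NT (adjusted p = 0.374 and 0.421, edgeR), although it sits in a host intron in the host's direction.

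Among the KRT18 copies, KRT18P61 (in an intron of BCAS3) had 18 and 28 counts in RBM25_NT and 9 and 15 in RBFOX1N_NT, against 3 and 6 in dCasRx_NT. KRT18P31 (in an intron of NIPBL, the cohesin loader) had 19 and 30 counts in RBM25_NT and 8 and 6 in RBFOX1N_NT, against 5 and 6 in dCasRx_NT. Both passed the filter through libraries with a fused effector, where they were high, so their differences are given without a test. KRT18P5 rose in RBFOX1N_NT over dCasRx_NT by 1.74 (edgeR adjusted p = 0.0223), a call lost without RBFOX1N_NT replicate 2 or dCasRx_NT replicate 2 (adjusted p up to 0.189). KRT18P17, the most abundant of them, had log2 differences of 0.02 and 0.10 over dCasRx_NT (adjusted p = 0.959 and 0.811, edgeR). Of the genes around the KRT8 copies, CEP120, TTBK2 and MANBA had log2 differences of -0.12 to 0.16 over dCasRx_NT, with adjusted p of 0.399 or more (edgeR).

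Processed pseudogenes as a class were set beside them, without KRT8P36 and KRT8P39 but with the other keratin copies of this kind, so the class is not a separate set. The 963 that passed the filter had a median log2 difference of -0.60 for RBM25_NT over dCasRx_NT and -0.93 for RBFOX1N_NT over dCasRx_NT. In RBM25_NT over dCasRx_NT 3.22% of them rose and 0.935% fell, beside 3.88% and 3.74% of all genes. In RBFOX1N_NT over dCasRx_NT 2.7% rose and 9.14% fell, beside 7.52% and 3.25% of all genes. They were then split by their place in the annotation, a split chosen after values were seen. Of the 198 inside an intron in the direction of the host, 16 rose (8.08%) and 2 fell in RBM25_NT over dCasRx_NT. Of 199 inside an intron in the opposite direction, 1 rose (0.503%) and 1 fell, and of 503 that overlapped no gene, 8 rose (1.59%) and 5 fell. Of 63 that overlapped an exon of another gene, 6 rose (9.52%) and 1 fell, a share above that of introns in the direction of the host. In RBFOX1N_NT over dCasRx_NT, 13 in introns in the direction of the host rose (6.57%) and 17 fell, and 1 in introns in the opposite direction rose and 21 fell. Without a gene 8 rose and 44 fell, and over an exon 4 rose (6.35%) and 6 fell. In each kind, the share that rose with RBFOX1N lay under the 7.52% of all genes and the share that fell lay above their 3.25%. The difference between these kinds was not tested. KRT8P33, KRT18P31 and KRT18P61 are counted among those that rose with RBM25 in introns in the direction of the host, and KRT8P50 among those over an exon. Pseudogenes of the class that passed the filter only through libraries with a fused effector, as KRT18P31 and KRT18P61 did, were not set apart.

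**Figure D3:**
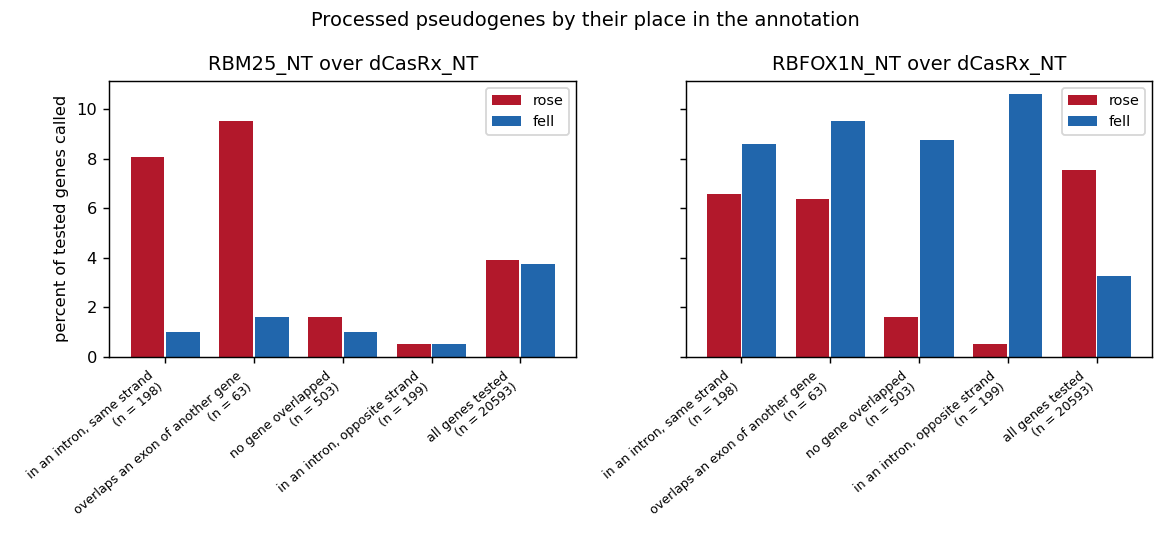
Percent of tested processed pseudogenes that rose (red) or fell (blue) over dCasRx_NT by their place relative to other genes, with all genes tested at the right of each panel. For RBM25_NT, 9.52% rose over exons of other genes, 8.08% inside introns in the direction of the host and 0.503% inside introns in the opposite direction. Of all genes tested, 3.88% rose. Keratin pseudogenes other than KRT8P36 and KRT8P39 are included.

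Splicing of the keratin genes themselves showed no call. The table holds 43 events of KRT8, 16 of KRT18 and 10 of KRT19, of which 1 of KRT8 and 1 of KRT18 had enough reads. Neither was called in any of the 3 comparisons of effectors by the quasi-binomial model (0 of 2, 0 with an unadjusted p under 0.05, and 0 by limma), where 0.731%, 1.14% and 1.67% of all 100377 events were called for RBM25_NT over dCasRx_NT, RBFOX1N_NT over dCasRx_NT and RBM25_NT over RBFOX1N_NT. The KRT8 event is the first intron (chr12:52905028-52949455, 44428 bases) of its long transcripts, listed as retained in 90.8% ± 3.53 of reads in RBM25_NT and 92.4% ± 1.15 in RBFOX1N_NT, against 91.1% ± 5.11 in dCasRx_NT (SD, n = 2). These percents rest on reads at 1 boundary: the downstream one had 84 to 290 reads and the upstream one 1 to 8, with 0.0 reads in the middle of the intron in every library. The KRT8 transcript aligned above starts inside this intron, next to its downstream boundary. The KRT18 event (chr12:52948939-52949172, 234 bases) had 145 to 300 reads at its downstream boundary and at most 1 at its upstream one, with values of 51.9% ± 0.727 in RBM25_NT and 51.4% ± 0.757 in RBFOX1N_NT, against 49.6% ± 3.35 in dCasRx_NT. At each of the 7 and 5 introns whose spliced reads were summed above, at most 1.81% of reads spoke for retention.

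The wider keratin network was tested as 103 genes in 6 lists: other keratins, other intermediate filaments, desmosome and plakin linkers, keratin partners and modifiers, epithelial transcription regulators and simple epithelium markers. All lists were chosen with earlier results of these data known, so their shares beside those of all genes are descriptions. By edgeR, 5 rose and 5 fell in RBM25_NT over dCasRx_NT (4.85% each, beside 3.88% and 3.74% of all genes, or 7.62% in either direction). In RBFOX1N_NT over dCasRx_NT 20 rose and 0 fell (19.4%, beside 7.52% rising and 10.8% in either direction). In RBM25_NT over RBFOX1N_NT 1 rose and 17 fell (16.5% fell, beside 9.63%, and 16.7% of all genes in either direction). Of the 103, 5 reached the level of the filter in neither dCasRx library. Among the other 98, 5 rose and 5 fell, 20 rose and 0 fell, and 1 rose and 16 fell in these comparisons. The list medians were 0.04, 0.13 and -0.08 on the log2 scale, beside 0.01, -0.01 and 0.01 over all genes. The counts move with single libraries. For RBM25_NT over dCasRx_NT 2 genes were called without RBM25_NT replicate 1, 3 without dCasRx_NT replicate 2, 5 without RBFOX1N_MAPT replicate 2, 6 without RBFOX1N_NT replicate 1 and 20 without either replicate of RBM25_MAPT. For RBFOX1N_NT over dCasRx_NT 9 and 8 were called without RBFOX1N_NT replicate 1 and 2, and 8 without dCasRx_NT replicate 2. For RBM25_NT over RBFOX1N_NT 11 were called without RBFOX1N_NT replicate 1.

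Other keratins were nearly silent apart from KRT10. Of 52 listed, 5 passed the filter and none was called over dCasRx_NT with either effector (0 by edgeR and 0 by DESeq2, with 0 for RBM25_NT and 2 for RBFOX1N_NT at an unadjusted p under 0.05). KRT10, the suprabasal keratin of skin, was the highest of them at 13.6 to 24.5 CPM, and KRT17 had 0.358 to 0.933 CPM. KRT80 had 0 and 0 counts in RBM25_NT and 9 and 8 in RBFOX1N_NT, against 1 and 1 in dCasRx_NT. It reached the level of the filter in RBFOX1N libraries alone, so it could pass only where it was high, and its differences are given without a test although it is among the genes counted as called for RBM25_NT over RBFOX1N_NT.

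Among the linkers between keratin filaments and cell junctions, the plakins PPL and EPPK1 and the hemidesmosome collagen COL17A1 moved most. PPL, periplakin, had 1.21 ± 0.187 CPM in RBM25_NT, against 5.31 ± 1.10 CPM in dCasRx_NT (SD, n = 2), and fell by 2.14 on the log2 scale (edgeR adjusted p = 5.36e-05). COL17A1 fell by 1.86 (adjusted p = 0.000873), and these were the 2 called of 16 tested (12.5% fell, beside 3.74% of all genes). With RBFOX1N, 3 of 16 rose over dCasRx_NT (18.8%, beside 7.52% of all genes): EPPK1, epiplakin, by 0.97 (adjusted p = 0.0311), EVPL, envoplakin, by 0.71 (adjusted p = 0.0201) and PKP4, a plakophilin, by 0.45 (adjusted p = 0.00297). In RBM25_NT over RBFOX1N_NT 4 fell (25.0%, beside 9.63% of all genes), with PPL at -2.50 and EPPK1 at -1.85 (adjusted p = 4.75e-06 and 0.000571, edgeR). The call of EPPK1 over dCasRx_NT was lost without any 1 library of the 2 groups (adjusted p up to 0.186). That of EVPL was lost without RBFOX1N_NT replicate 2 or dCasRx_NT replicate 2 and in a fit of the 2 groups alone (adjusted p up to 0.191). The desmosomal genes DSG2 and DSP, the most abundant of the list at 228 to 295 CPM and 131 to 196 CPM, were not called in any comparison.

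Of the other intermediate filaments, 3 of 15 rose in RBFOX1N_NT over dCasRx_NT (beside 7.52% of all genes): nestin (NES) by 0.49 (edgeR adjusted p = 0.0194) and the lamins LMNA by 0.46 (adjusted p = 0.0203) and LMNB1 by 0.31 (adjusted p = 0.0277). SYNC, syncoilin, fell in RBM25_NT by 0.88 over dCasRx_NT (adjusted p = 0.0155) and by 1.00 over RBFOX1N_NT (adjusted p = 0.00364). These calls over dCasRx_NT were lost in 3, 4, 8 and 4 of 18 alternatives in this order, each without RBFOX1N_NT replicate 2 or, for SYNC, either RBM25_NT replicate, and each without dCasRx_NT replicate 2 (adjusted p up to 0.194, 0.145, 0.212 and 0.114). In RBM25_NT over RBFOX1N_NT 4 fell (26.7%, beside 9.63% of all genes), the largest DES, the muscle filament desmin, by 1.16 (adjusted p = 0.0327, lost in 6 of 18, among them each library of the 2 groups left out, adjusted p up to 0.201). VIM, the vimentin of mesenchymal and cultured cells, was the most abundant filament gene at 646 to 863 CPM and was not called.

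Regulators of epithelial genes were the largest tested of the 6 lists. Of 26 tested, 12 rose and 0 fell in RBFOX1N_NT over dCasRx_NT (46.2%, beside 7.52% of all genes), with a list median of 0.38. OVOL1, an epithelial zinc finger factor, had 1.93 ± 0.459 CPM in RBFOX1N_NT, against 0.366 ± 0.100 CPM in dCasRx_NT, and rose by 2.41 (edgeR adjusted p = 0.000464). ELF3, an ETS factor, rose by 1.57 (adjusted p = 0.00611), and the AP-1 subunits FOSL2 and JUN by 1.21 (adjusted p = 6.76e-05) and 0.89 (adjusted p = 0.00352). These 4 calls held in 18 of 18 alternatives. In RBM25_NT over dCasRx_NT 5 of 26 rose and 2 fell (19.2% and 7.69%, beside 3.88% and 3.74% of all genes). Among them, JUNB rose by 0.74 and JUN by 0.61 (edgeR adjusted p = 0.0335 and 0.0347). FOSL1 and GRHL3, a grainyhead factor, were at -0.82 and -0.71 (edgeR adjusted p = 0.0377 and 0.0309). Each of these 4 calls was lost in 6 to 9 of 18 alternatives, all 4 without RBM25_NT replicate 1 (adjusted p up to 0.301). Leaving out dCasRx_NT replicate 1 lost FOSL1, replicate 2 lost JUNB, and either replicate lost JUN and GRHL3. In RBM25_NT over RBFOX1N_NT 7 of 26 fell (26.9%, beside 9.63% of all genes and near the shares of the linkers and other filaments), with OVOL1 at -3.10 and FOSL1 at -1.57 (adjusted p = 6.05e-05 and 0.000372, edgeR).

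Of 20 partners and modifiers of keratins, 2 rose in RBFOX1N_NT over dCasRx_NT (10.0%, near the 7.52% of all genes), the kinases MAPK3 by 0.47 and PRKCE by 0.39 (edgeR adjusted p = 0.0108 and 0.0272). Both calls were lost without either RBFOX1N_NT replicate or dCasRx_NT replicate 2 (adjusted p up to 0.0961 and 0.203). In RBM25_NT over RBFOX1N_NT YWHAH, a 14-3-3 protein, fell by 0.34 (adjusted p = 0.0112, edgeR), and that call was lost without RBM25_NT replicate 1 or either RBFOX1N_NT replicate (adjusted p up to 0.118). None of 21 simple epithelium markers was called in any comparison of effectors by edgeR (0) or by DESeq2 (0), with 2, 3 and 4 at an unadjusted p under 0.05. CDH1, E-cadherin, had 5.0 to 7.01 CPM and EPCAM 1.34 to 2.57 CPM over the 12 libraries, and the 23 listed markers summed to 173 to 198 CPM with RBM25 and 184 to 187 CPM with RBFOX1N, against 169 and 175 CPM with dCasRx. Of 12 tested mesenchymal markers, 2 fell and 0 rose in RBM25_NT over dCasRx_NT (16.7% fell, beside 3.74% of all genes): ACTA2, the smooth muscle actin, with a log2 difference of -2.16 and PDGFRB, a growth factor receptor, with -2.05 (adjusted p = 3.31e-06 and 0.0149, edgeR). In RBFOX1N_NT over dCasRx_NT TAGLN, a smooth muscle actin-binding protein, rose by 1.04 and ACTA2 fell by 0.97 (adjusted p = 0.00206 and 0.000729, edgeR; 8.33% each, beside 7.52% higher and 3.25% lower of all genes). In RBM25_NT over RBFOX1N_NT 2 rose, the collagens COL3A1 by 0.93 and COL1A1 by 0.48, and 4 fell (16.7% and 33.3%, beside 7.03% and 9.63% of all genes).

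Between guides, no gene of the 20593 (0%) and none of the 103 network genes was called for RBM25_MAPT over RBM25_NT, RBM25_CD46 over RBM25_NT or RBFOX1N_MAPT over RBFOX1N_NT by edgeR, and none of the network by DESeq2, while 8, 4 and 1 of the 103 had an unadjusted p under 0.05. Without RBM25_MAPT replicate 1, 2 network genes were called for RBM25_MAPT over RBM25_NT. The log2 differences of KRT8 were -0.06, -0.09 and -0.02 in these comparisons (SE 0.088 to 0.091), those of KRT18 -0.11, -0.14 and -0.03 (SE 0.083 to 0.084) those of KRT8P39 -0.07, 0.09 and -0.39 (SE 0.192 to 0.239) and those of KRT8P36 -0.44, 0.06 and -0.11 (SE 0.169, 0.166 and 0.211). The KRT8P36 value for RBM25_MAPT over RBM25_NT was the largest of these in size, with both RBM25_MAPT libraries below the other 4 with RBM25.

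The genes most like each keratin in pattern were sought by Pearson's r of log2 CPM over the 12 libraries, among 14912 genes with a mean of at least 1 CPM. The libraries share 3 effectors, so a high r reflects mainly the order of 3 levels. For KRT8 they were HMOX1 (r = 0.997), PIP4P1, DNAJB5, ABHD4 and DNAJB1 (0.991). HMOX1, heme oxygenase 1, averaged 54.3 CPM with RBM25 and 450 CPM with RBFOX1N, against 56.5 CPM with dCasRx. For KRT18 they were HDHD5 (0.947), PKM, a gene without a symbol in the name table, CDCA4 and AHCY (0.905). For KRT8P36 they were the processed pseudogenes DFFBP1 (0.992) and PRKXP1, then KRT8P39, DIDO1 and GATAD2B (0.977). For KRT8P39 they were FBXO32 (0.985), KRT8P36, DFFBP1, a gene without a symbol and JARID2 (0.973). DFFBP1 averaged 5.67 CPM with RBM25 and 1.32 CPM with RBFOX1N, against 0.756 CPM with dCasRx, close to the levels of the KRT8 copies.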

How the data were processed

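The deposited tables hold whole-number read counts for 62710 Ensembl genes and, for 721551 splicing events, a percent spliced in per library beside a text cell of quality scores and reads, per the file headers. The layout of those cells is that of vast-tools. Per the submitters' processing notes, STAR 2.7.10, edgeR and hg38 were used, with no step stated. For the annotation, the strand setting and multiply mapped reads, the rules applied are not stated in the sources used here, and overlapping genes and near-identical copies are uncertain. Per the labels' protocols, 500 ng of total RNA went into directional poly(A) libraries sequenced as 150 nt pairs. Each library was placed by its title. Replicates differed by more than sampling noise (chi-square per gene 6.18 to 33.7). Nothing beyond the label of biological replicate says how they were grown apart, so p-values measure the spread between these samples.

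Counts were fitted with edgeR 4.0.16 in R 4.3.3 (TMM, filterByExpr, quasi-likelihood, 6 group means, 6 residual degrees of freedom, Benjamini-Hochberg adjustment). Levels are CPM on TMM-scaled library sizes. The comparisons share groups, so they are not independent of each other. With 2 against 2 libraries an exact permutation test cannot go below p = 0.333. Events with at least 20 reads in each library and 24 reads of the less used form were tested with a quasi-binomial model of moderated dispersion and called at an adjusted p under 0.05 and 10 points. Tested on simulated data for RBM25_NT over dCasRx_NT with 20593 genes, the edgeR step recovered 23 of 50 genes changed 1.5-fold, 49 of 50 changed 2-fold and 50 of 50 at 4 and 8-fold, with 12 false calls. The changed genes all had a mean above 1 CPM, and every gene was drawn with the same dispersion. Recovery of genes with lower counts or a wider spread was not measured. Transcript sequences of GENCODE release 29 (GRCh38) were aligned with biopython 1.88. The sequences themselves and 1 called gene of the network are not reported here. The 5 genes and all lists were chosen with earlier results of these data known. Named genes are the 5 genes, up to 4 called genes per list and comparison by size of change or else the 2 most abundant, and the genes most alike in pattern. The KRT8P33, KRT8P50, KRT8P46 and KRT8P12 alignments and host introns, and the markers ACTA2 and TAGLN, follow the same lists. CDH1 and EPCAM were neither called nor among the 2 most abundant of their list. Alternatives were RLE size factors, no filter, DESeq2 1.42.0, limma 3.58.1 on logit values, a replicate block, a fit of 2 groups alone, pooled guides and leaving out each library.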

Additional observations from a re-analysis of the deposited data

How the results depend on the processing

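The log2 differences of KRT8, KRT18, KRT8P36 and KRT8P39 moved by less than the replicate SD under RLE size factors, DESeq2 and the replicate block (36 of 36 values). KRT19 gave no value after the filter. With a library of the groups compared left out, 12 of 48 values moved by the replicate SD or more, all of them of KRT8P36 or KRT18. Leaving out each library of the 2 groups in turn gave, for RBM25_NT over dCasRx_NT, RBFOX1N_NT over dCasRx_NT and RBM25_NT over RBFOX1N_NT, -0.11 to 0.01, 1.13 to 1.23 and -1.27 to -1.18 for KRT8, 0.19 to 0.27, 0.026 to 0.175 and 0.053 to 0.203 for KRT18, 2.94 to 3.30, 1.02 to 1.36 and 1.75 to 2.11 for KRT8P36 and 2.27 to 2.52, 0.79 to 1.07 and 1.33 to 1.61 for KRT8P39.

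The number of network genes called for RBM25_NT over dCasRx_NT, 10 of 103, became 17 with no filter on low counts, 3 in a fit of the 2 groups alone and 20 with guides pooled, and ranged from 2 to 20 with a library left out. For RBFOX1N_NT over dCasRx_NT, 20, it ranged from 8 to 24, and for RBM25_NT over RBFOX1N_NT, 18, it ranged from 11 to 26 and became 49 with guides pooled (15 higher and 34 lower). For RBM25_MAPT over RBM25_NT it ranged from 0 to 2. The fit of 2 groups alone called 14 for RBFOX1N_NT over dCasRx_NT and 22 for RBM25_NT over RBFOX1N_NT. That fit has fewer samples and pooled guides have more, and what moved the counts was not tested. Splicing counts stayed at 0 in 48 of 48 alternatives.

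With a replicate block, 12, 22 and 21 network genes were called in the 3 comparisons of effectors. Replicate numbers did not pair the samples: correlations of replicate 1 deviations between groups ran from -0.098 to 0.166. KRT19 had at most 6 counts in any library, so differences in it were not detectable at this depth.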
